A study of Brassica juncea with 21 samples.

Results

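The 4 genes described here had their highest value in secreting nectaries in the deposited table: an alcohol dehydrogenase class-P (LOC103832166, called ADH1 here), the multicopper oxidase LPR1 (LOC103840803), an uncharacterized transcript that matched the Arabidopsis locus AT5G24580 (LOC103854851), and an ocs element-binding factor 1-like protein (LOC103830652) that matched bZIP44. They were taken by their identifiers, each was found on a single line, and they are 4 of 13904 genes. They had been selected on their high deposited values at the secretory stage, against the stages before and after it. Their height at secretion, and both steps into and out of it, are therefore given as descriptions, with no test, and nothing is drawn from them.

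RNA was sequenced from Brassica juncea, a mustard whose flowers carry lateral and median nectaries, the glands that release nectar. Nectaries of each type were taken at 3 stages from plants of about 40 days: pre-secretory, 24 h before anthesis; secretory, at full anthesis, 4 to 8 h after dawn; and post-secretory, 12 h after the secretory stage. Leaf was taken at the same time as the secretory nectaries. Plants were grown under 16 h of light and 8 h of dark. Post-secretory nectaries were thus taken at another time of day than secretory ones. Stage and time of day therefore cannot be told apart at the end of secretion. Each of these 7 groups had 3 libraries, and each nectary library held about 100 hand-dissected nectaries pooled from a separate set of plants. No strain, genotype or treatment is given in the labels for any group. Since leaf was the only other tissue, secretion and floral origin cannot be told apart against it.

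The table gives 1 normalized value per group, with no value per library. No replicate spread, interval or test could therefore be computed, and "higher" and "lower" mean a difference of at least 2-fold between group values, taken on log2 of the value plus 1. The lateral post-secretory column is the only one not marked as normalized like the other 6, and every value at that stage rests on its being on the same scale. Values were not stated to be adjusted for transcript length, so fold differences are taken between groups for the same gene, not between genes. Sums, shares, rankings by value and value thresholds given further on do combine genes and carry this limit. In these bulk samples fewer cells of a type and less RNA per cell cannot be told apart.

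Alcohol dehydrogenase turns acetaldehyde, which pyruvate decarboxylase makes from pyruvate, into ethanol, and so restores the NAD that glycolysis uses. In Arabidopsis ADH1 is a classical gene of the response to low oxygen and is also expressed in pollen. LPR1 is known in Arabidopsis roots as a ferroxidase that acts with the ATPase PDR2 in the growth response to low phosphate. bZIP44 belongs to the S1 group of basic leucine zipper factors. Several members of that group are translated less when sucrose is high, and S1 factors pair with C group factors such as bZIP9. The locus AT5G24580 is annotated as a heavy metal transport or detoxification protein, a family named after its metal-binding domain.

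In Arabidopsis, ADH1 (AT1G77120) lies on chromosome 1 from 28975509 to 28977216 and encodes 379 residues, and LPR1 (AT1G23010) lies on chromosome 1 from 8147353 to 8149580 and encodes 581. The bZIP44 model (AT1G75390) lies on chromosome 1 from 28292224 to 28292665 and encodes 123 residues. All 3 are on the forward strand. AT5G24580 lies on chromosome 5 from 8410394 to 8411527 on the reverse strand and encodes 232 residues. The table names no build for these spans and does not say which exons or untranslated parts they cover. Brassica juncea is a polyploid, and its gene copies are pooled wherever they share a Brassica rapa match.

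ADH1 was listed at 781, 112027 and 3815 in pre-secretory, secretory and post-secretory lateral nectaries, at 1513, 40719 and 4086 in median nectaries in the same order, and at 164 in leaf. Both secretory values stood above all the other groups, and both post-secretory values stood above both pre-secretory ones. At the onset of secretion it was 143-fold higher in lateral nectaries (log2 7.16) and 26.9-fold higher in median nectaries (log2 4.75). At the end of secretion it was 29.4-fold lower in lateral and 9.96-fold lower in median nectaries. It had not returned to its first level by then: the post-secretory value was 4.88-fold above the pre-secretory one in lateral and 2.70-fold above it in median nectaries.

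LPR1 was listed at 8811, 139414 and 1119 in the lateral series, at 13225, 123346 and 8044 in the median series, and at 101 in leaf. Before secretion it was already high against leaf in both types. The onset differences were 15.8-fold in lateral (log2 3.98) and 9.33-fold in median nectaries (log2 3.22). After secretion the lateral value was 124-fold below the secretory one (log2 -6.96) and the median value 15.3-fold below it (log2 -3.94). LPR1 was the only one of the 4 genes with post-secretory values under its pre-secretory ones, 7.87-fold lower in lateral nectaries and, within 2-fold, 1.64-fold lower in median nectaries.

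The AT5G24580 match was listed at 1124, 55865 and 13757 in lateral nectaries, at 233, 16772 and 5019 in median nectaries, and at 55 in leaf. Lateral values exceeded median values at every stage. It was 49.7-fold higher at lateral onset (log2 5.63) and 71.7-fold higher at median onset (log2 6.16). Its end steps were shallow beside these, 4.06-fold lower in lateral and 3.34-fold lower in median nectaries. As a result the post-secretory values stayed 12.2-fold above the pre-secretory value in lateral and 21.5-fold above it in median nectaries.

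bZIP44 was listed at 6952, 23800 and 7784 in lateral nectaries, at 1448, 16744 and 4431 in median nectaries, and at 16 in leaf. The lateral series began and ended at nearly the same value, 1.12-fold apart, whereas the median series ended 3.06-fold above its start. Onset differences were 3.42-fold in lateral (log2 1.78) and 11.6-fold in median nectaries (log2 3.53). At the end of secretion it was 3.06-fold lower in lateral and 3.78-fold lower in median nectaries.

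**Figure D1:**
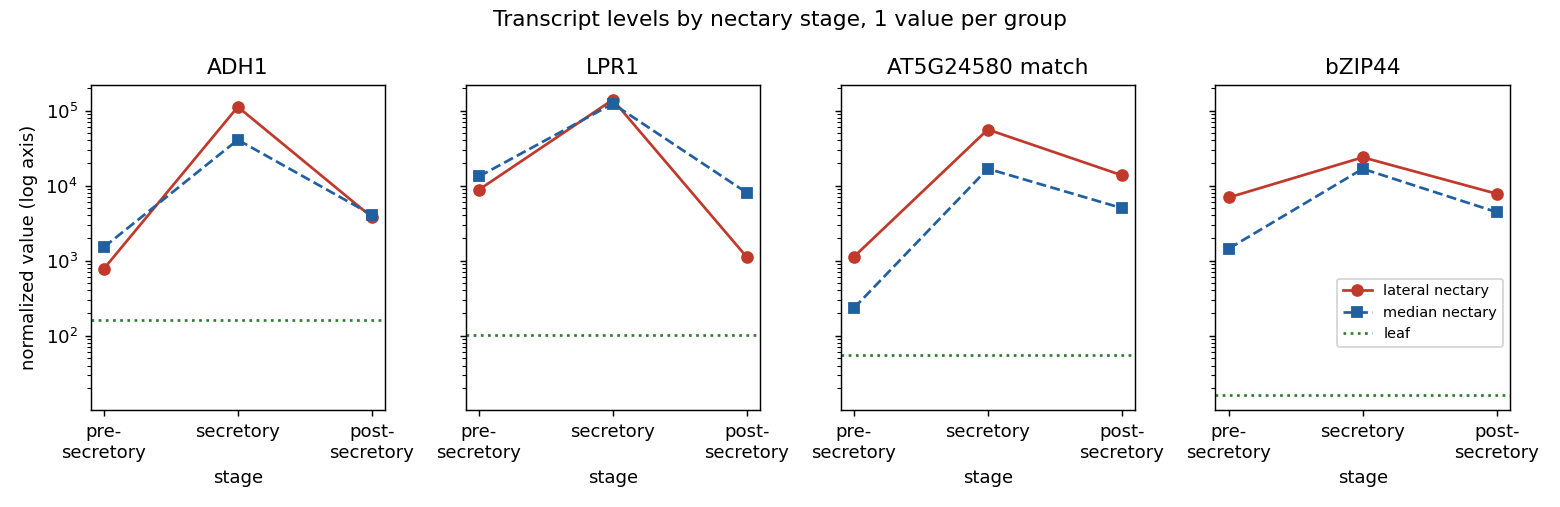
Normalized value (log axis) of each gene against nectary stage, with a solid line for lateral nectaries, a dashed line for median nectaries and a dotted line for leaf; each point is 1 group value with no replicate spread. The secretory value is the highest of each line, and ADH1 spans 164 in leaf to 112027 in lateral secretory nectaries.

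Counted over the 4 genes, 4 were at least 2-fold higher at lateral onset and 4 at median onset. Of all 14390 transcripts kept, 21.5% and 17.596% were higher in those comparisons, and 23.5% and 18.4% were lower. At the end of secretion 4 were lower in lateral and 4 in median nectaries, beside 18.4% and 15.0% of all transcripts, while 23.9% and 17.5% of all transcripts were higher. A secretory value at least 2-fold above both other stages was found for 11.4% of transcripts in lateral nectaries, 5.68% in median nectaries and 4.09% in both. These counts follow from how the genes were picked. The 2 steps of a nectary type share their secretory value, so their opposite signs are not independent. Together the 4 genes held 0.225% of the lateral pre-secretory column, 2.99% of the secretory and 0.374% of the post-secretory one. In median nectaries the shares were 0.196%, 1.76% and 0.277%, and in leaf 0.00348%. A single other transcript (LOC103828338), named after its values were seen, held 1477508 of the median secretory total of 11197495. In the lateral secretory column it held 190392 of 11071618, so shares of these 2 columns are not on an equal footing.

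The same genes were then compared before and after secretion. In lateral nectaries 2 of 4 were higher after secretion than before (ADH1 and the AT5G24580 match), where 17.0% of all transcripts were higher, and LPR1 was lower, where 14.3% were lower. In median nectaries 3 of 4 were higher, beside 19.8% of all transcripts, and none was lower, beside 21.7%.

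Against leaf, 4 of 4 genes were higher in lateral secretory nectaries and 4 of 4 in median secretory nectaries, where 29.6% and 25.1% of all transcripts were higher and 27.7% and 25.2% lower. The secretory values used here are those on which the genes were picked, so these counts are descriptions only. bZIP44 was 1400-fold higher in lateral (log2 10.45) and 985-fold higher in median nectaries (log2 9.94). LPR1 was 1367-fold and 1209-fold higher, the AT5G24580 match 998-fold and 299.5-fold, and ADH1 679-fold and 247-fold. Leaf was the lowest of the 7 groups for all 4 genes. The step from leaf to the next group was widest for bZIP44 (log2 6.41) and narrower for LPR1 (3.46), ADH1 (2.24) and the AT5G24580 match (2.06). All 6 nectary groups stood at least 2-fold above leaf for 7.13% of transcripts, these 4 among them.

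**Figure D2:**
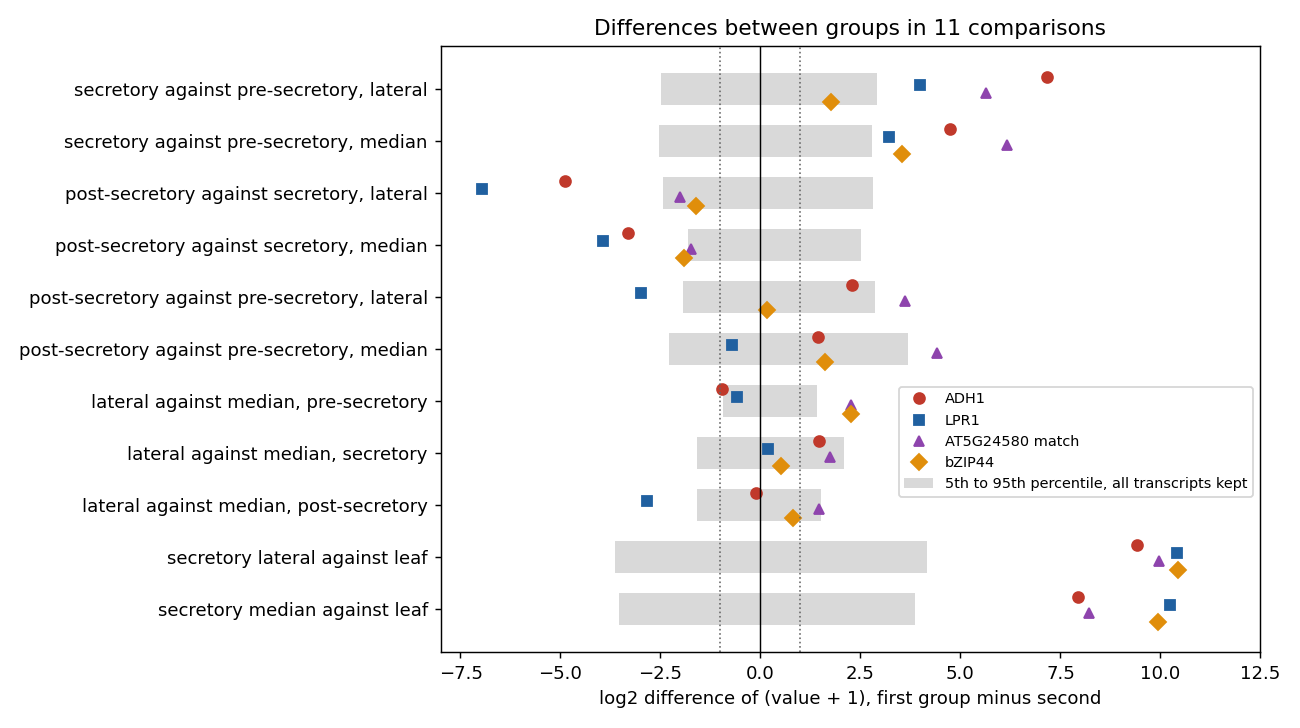
Log2 differences of the value plus 1 for the 4 genes in 11 comparisons, first group minus second; grey bars run from the 5th to the 95th percentile of all 14390 transcripts and dotted lines mark 2-fold. The genes part most after secretion, where LPR1 is at -2.98 and the AT5G24580 match at 3.61 in lateral nectaries.

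The nectary types differed gene by gene. Before secretion, 2 of 4 genes were higher in lateral than in median nectaries, the AT5G24580 match (4.81-fold) and bZIP44 (4.80-fold), where 7.90% of all transcripts were higher. ADH1 and LPR1 stood at log2 -0.95 and -0.59, within 2-fold, where 4.42% of all transcripts were lower. At secretion 2 of 4 were higher in lateral nectaries, the AT5G24580 match (3.33-fold) and ADH1 (2.75-fold), where 14.7% of all transcripts were higher and 12.9% lower. LPR1 (1.13-fold) and bZIP44 (1.42-fold) lay within 2-fold. After quantile normalization the ADH1 difference at secretion was log2 0.64 in place of 1.46, within 2-fold, and that of LPR1 took the other sign.

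After secretion, 1 of 4 genes was higher in lateral nectaries, the AT5G24580 match (2.74-fold), where 12.6% of all transcripts were higher. LPR1 was 7.18-fold lower there, where 9.41% were lower. ADH1 (log2 -0.10) and bZIP44 (log2 0.81) lay within 2-fold. The size of the steps also differed by type. The onset step of ADH1 was 5.33-fold larger in lateral nectaries and that of bZIP44 3.38-fold larger in median nectaries. The end step of LPR1 was 8.12-fold larger in lateral nectaries. None of these differences between types could be tested.

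In the order of levels, lateral secretory came first and median secretory second for all 4 genes. That the secretory groups led follows from how the genes were picked. The step between these groups was within 2-fold for LPR1 (log2 0.18) and bZIP44 (log2 0.51). For LPR1 its sign changed after quantile normalization. Behind the secretory groups ADH1 ran from median post-secretory to lateral post-secretory, median pre-secretory and lateral pre-secretory nectaries. Of its 6 neighbouring steps 2 were within 2-fold, between the 2 post-secretory groups and between the 2 pre-secretory ones. LPR1 had median and lateral pre-secretory nectaries next and lateral post-secretory nectaries last before leaf, with 3 neighbouring steps within 2-fold. For the AT5G24580 match the post-secretory groups came next, and only median secretory and lateral post-secretory nectaries (16772 and 13757) were neighbours within 2-fold. bZIP44 had 3 neighbouring steps within 2-fold, among them lateral post-secretory against lateral pre-secretory nectaries.

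Across the 7 groups, which share their columns and their scaling, the log2 values of ADH1 and the AT5G24580 match had a Pearson r of 0.906. The lowest r among the 6 pairs was 0.684, between LPR1 and the AT5G24580 match, and it was 0.354 over the 6 nectary groups alone. The pair of bZIP44 and the AT5G24580 match had an r of 0.901 over the nectary groups. These values describe 7 or 6 points and carry no test. The values on which the genes were picked enter each r, so a high r between them follows in part from the pick.

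Fermentation and the response to low oxygen are the setting in which ADH1 is best known. Of 34 Arabidopsis loci listed as core genes of the hypoxia response, other than ADH1, 23 were matched by 28 transcripts here. All 28 were higher at secretion than before it in lateral nectaries and 26 of 28 in median nectaries, with none lower in either. Their median log2 differences were 4.20 and 2.68, where the medians of all transcripts were -0.04 and 0.03. At the end of secretion 24 of 28 were lower in lateral and 23 in median nectaries, with medians of -2.48 and -2.14. In 20 of the 28 the secretory value stood at least 2-fold above both other stages in both types, as it did in 4.09% of all transcripts. Between types at secretion, 20 were higher in lateral nectaries and 0 lower, with a median of 1.77.

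The 4 members with the highest mean value over the groups were a pair of sucrose synthases, a pyruvate decarboxylase and an alanine aminotransferase. Sucrose synthase 1 (LOC103845641), which splits sucrose into UDP-glucose and fructose, was listed at 18364, 123226 and 5307 in lateral and 6105, 40835 and 8116 in median nectaries. Its other copy (LOC103856465) was 6.38-fold higher at lateral onset and 5.53-fold at median onset. Pyruvate decarboxylase 2 (LOC103844946), which supplies acetaldehyde to alcohol dehydrogenase, was listed at 1253, 48566 and 4727 in lateral and 1199, 13836 and 2072 in median nectaries. It was listed at 238 in leaf. An alanine aminotransferase (LOC103872517), matched to a pair of Arabidopsis loci, was 7.76-fold higher at lateral and 3.26-fold higher at median onset.

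Further members were named after their values were seen. Plant cysteine oxidases mark group VII ERF factors for breakdown when oxygen is present, and in Arabidopsis PCO1 and PCO2 are low-oxygen genes. PCO1 (LOC103856111) was listed at 324 before and 8279 at lateral secretion, and PCO2 (LOC103863926) at 155 and 2275. HRA1 (LOC103870494), which restrains one of these factors in Arabidopsis, was listed at 384 and 8798. HRE2 (LOC103843716), a group VII ERF, was listed at 3 and 1292 in lateral and at 11 and 508 in median nectaries. The non-symbiotic hemoglobin HB1 (LOC103846064), which removes nitric oxide, was listed at 124 and 2152. The 2 transcripts that were not higher at median onset matched LBD41 (LOC103850115) and ETR2 (LOC103833878). The first also matched another locus and carries a 14-3-3 product name, so its identity is not settled. Of the 26 transcripts matched to a single locus, 26 were higher at lateral and 25 at median onset.

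**Figure D3:**
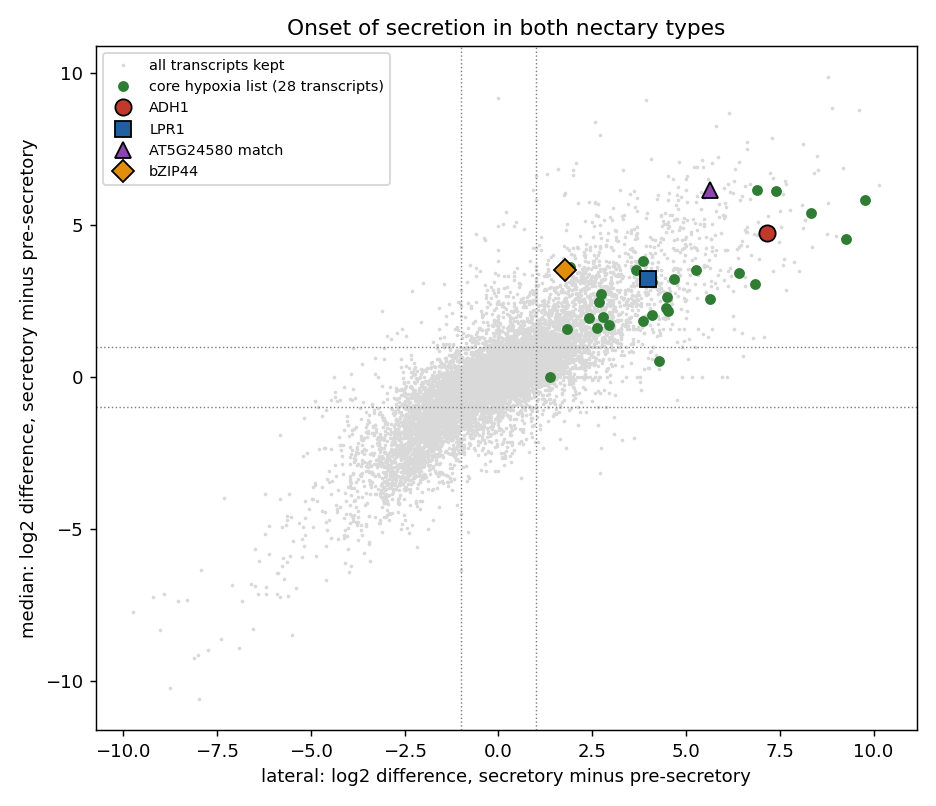
Log2 difference at the onset of secretion in lateral (x axis) and median nectaries (y axis) for all 14390 transcripts (grey), the 28 core hypoxia transcripts (green) and the 4 genes (large symbols); dotted lines mark 2-fold. All 28 green points lie right of the 2-fold line for lateral nectaries and 26 above the line for median nectaries.

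Other parts of the pathway gave mixed counts. Among 9 fermentation transcripts other than ADH1, 3 were higher and 5 lower at lateral onset (median -1.32), and 2 were higher and 2 lower at median onset (median -0.10). Pyruvate decarboxylase and the aminotransferase stand in this list and in the one before. The higher ones at lateral onset were pyruvate decarboxylase 2, the alanine aminotransferase and lactate dehydrogenase (LOC103860904), at 908 and 5045, the last named after its values were seen. Aldehyde dehydrogenase ALDH2B4 (LOC103873180), which oxidizes acetaldehyde to acetate, was listed at 2140 and 797 in lateral and at 7157 and 2016 in median nectaries, lower in both. Another ALDH2B4 transcript (LOC103873557), named after its values were seen, was within 2-fold at both onsets (log2 -0.55 and -0.10). Acetyl-CoA synthetase (LOC103864286), which uses acetate, was lower at lateral onset (log2 -1.32), at 3207 and 1285. The set of oxygen-sensing factors had 1 of 9 higher and 1 lower at onset in each type, HRE2 and RAP2.3 (LOC103839768), the latter listed at 284 and 85 in lateral nectaries. Both were named after their values were seen. The cysteine oxidases of this set, PCO5 (LOC103862968) and PCO4 (LOC103866672), were also named after their values were seen. They were within 2-fold at both onsets, at log2 -0.44 and -0.79 in lateral and -0.19 and -0.24 in median nectaries. A PRT6 match (LOC103847459) was within 2-fold at both onsets too (log2 0.81 and 0.25). RAP2.12 (LOC103832647) and both RAP2.2 transcripts, group VII ERFs that are made constitutively in Arabidopsis, lay within 2-fold at onset.

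The ADH family itself was counted too. The 2 other measured members were ADH2 (LOC103827942), which acts on S-nitrosoglutathione, and a match of AT5G63620 (LOC103873771). ADH2 was listed at 5952, 3814 and 3801 in lateral, at 5605, 2536 and 2107 in median nectaries and at 4327 in leaf. It was thus highest before secretion in both types, and lower at median onset (log2 -1.14). Neither was higher at onset in either type.

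Cytosolic glycolysis had 7 of 15 transcripts higher and 1 lower at lateral onset (median 0.71), and 5 higher and 3 lower at median onset (median 0.00). After quantile normalization the lateral split was 5 and 5, and with same-total scaling the median split was 2 and 3. At the end of secretion 10 of 15 were lower in each type, with medians of -2.35 in lateral and -1.92 in median nectaries. Glyceraldehyde-3-phosphate dehydrogenase GAPC1 (LOC103836104) was listed at 30256, 159683 and 13476 in lateral and 28849, 67987 and 11098 in median nectaries. The aldolase FBA8 (LOC103850273) was 3.53-fold and enolase ENO2 (LOC103865552) 2.85-fold higher at lateral onset. A hexokinase-1-like transcript (LOC103837987) was within 2-fold at onset, at 15121 and 11060. The phosphofructokinases, which commit sugar to glycolysis, were named after their values were seen. PFK3 (LOC103866006) was listed at 426 and 7813 and PFK6 (LOC103850396) at 189 and 4266 in lateral nectaries.

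Beside ADH1 on the Arabidopsis chromosome lies PIN6 (AT1G77110), an auxin carrier, which ends 1284 bases before ADH1 begins on the same strand. It was looked at after its values were known. PIN6 (LOC103832163) was listed at 32, 1450 and 15 in lateral and at 9790, 26085 and 2138 in median nectaries. It shared the secretory maximum with ADH1, but its median values exceeded its lateral ones at every stage.

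LPR2, named after its values were seen, carries the product name nearest to that of LPR1. LPR2 (LOC103831635) was listed at 11, 65 and 472 in lateral nectaries, at 6, 45 and 1779 in median nectaries and at 170 in leaf. It was highest after secretion in both types, the stage at which LPR1 was lowest. Of 21 phosphate transcripts other than LPR1, 2 were higher and 4 lower at lateral onset and 1 was higher and 3 lower at median onset. Their medians, -0.05 in both types, were near those of all transcripts. With same-total scaling 8 were lower at lateral and 6 at median onset. At the lateral end step 9 of 21 were higher and 2 lower, where 23.9% of all transcripts were higher and 18.4% lower. At the median end step 7 were higher and 1 lower, beside 17.5% and 15.0% of all transcripts. PDR2 (LOC103854889), the ATPase that acts with LPR1, was listed at 1302, 2378 and 1189 in lateral and at 1235, 1562 and 1205 in median nectaries, just within 2-fold at the lateral end step. PHO2 (LOC103865294), a ubiquitin-conjugating enzyme, and the acid phosphatase PAP26 (LOC103833746) were also within 2-fold at both steps. SQD2 (LOC103855432), a sulfolipid synthase, was 2.36-fold higher at the lateral end step and 4.07-fold at the median one.

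Multicopper oxidases other than LPR1 were measured as 11 transcripts. At onset 7 were higher and 3 lower in lateral nectaries, and 7 higher and 4 lower in median nectaries (4 and 4 with same-total scaling). An L-ascorbate oxidase-like transcript (LOC103851396), of an enzyme family that oxidizes ascorbate outside the cell, was listed at 4955, 47483 and 1730 in lateral and 11721, 24669 and 3992 in median nectaries. The L-ascorbate oxidase LOC103845610 was listed at 663, 5287 and 762, and at 7649, 16109 and 1700. Both had their maximum at secretion. A homolog (LOC103853005) had its minimum there, at 4781, 633 and 1392 in lateral and at 3192, 122 and 605 in median nectaries. Another (LOC103859515) was listed at 152, 694 and 955, and at 190, 1660 and 3554.

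**Figure D4:**
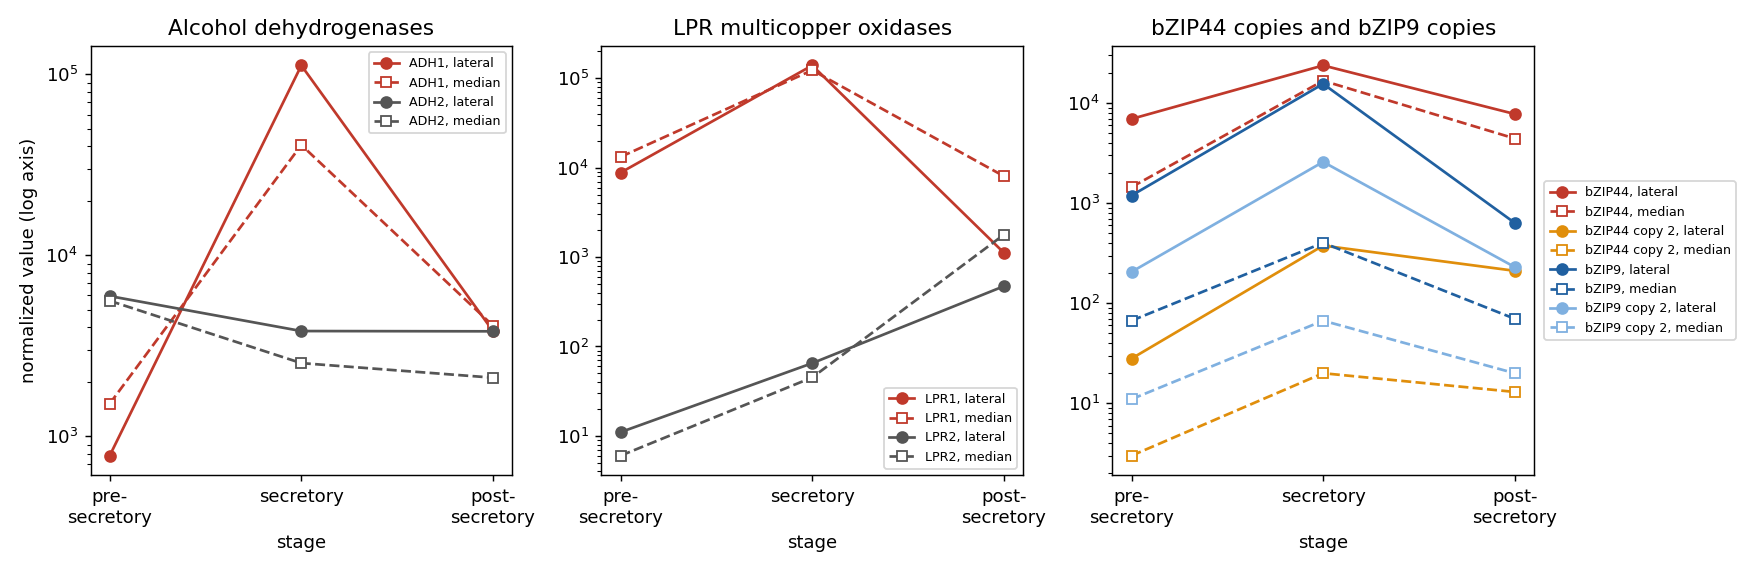
Normalized value (log axis) by stage for ADH1 and ADH2, LPR1 and LPR2, and both copies of bZIP44 and of bZIP9; solid lines with filled circles are lateral and dashed lines with open squares median nectaries, 1 value per group. ADH2 and LPR2 lack the secretory maximum of ADH1 and LPR1, and each bZIP copy is highest at secretion.

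bZIP44 has a second measured copy (LOC103832275), whose product name is basic leucine zipper 1. It was listed at 28, 377 and 211 in lateral nectaries, at 3, 20 and 13 in median nectaries and at 5 in leaf. Like the first copy it had its maximum at secretion, but its lateral onset step was 13.0-fold where that of the first was 3.42-fold. Among 13 S1 and C group transcripts other than LOC103830652, 7 were higher and 1 lower at lateral onset (median 1.00), and 3 higher and 1 lower at median onset (median 0.46). With same-total scaling 3 were higher and 2 lower at lateral onset.

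The factor bZIP9, of the C group, had 2 measured transcripts, the second of them named after its values were seen. They were listed at 1193, 15576 and 635 (LOC103854786) and at 206, 2587 and 230 (LOC103874345) in lateral nectaries. In median nectaries they were listed at 67, 402 and 70, and at 11, 67 and 20. Both peaked at secretion in both types, and every lateral value was above the median one. A bZIP11 match with the product name basic leucine zipper 63-like (LOC103862358) lay within 2-fold at all 4 steps. Another bZIP11 match (LOC103836519) was lower at both onsets (log2 -1.53 and -2.05) and higher at both end steps (6.82-fold and 13.2-fold). It was listed at 685, 236 and 1616 in lateral and at 587, 141 and 1874 in median nectaries, lowest at the stage where bZIP44 was highest. It shares the product name of bZIP44, as do 3 further transcripts. Of these, bZIP53 (LOC103830358) lay within 2-fold at all 4 steps. The bZIP2 match (LOC103837843) was listed at 1090, 1234 and 1236 in lateral and at 2011, 1522 and 493 in median nectaries. The last (LOC103856165) was listed at 0, 0 and 40, and at 0, 17 and 440. bZIP10 (LOC103836726) was 2.37-fold higher at lateral onset, at 1662 and 3947, and within 2-fold at median onset.

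Genes known to respond to S1 factors or to the SnRK1 kinase were counted as a further list. The list also held KIN10 (LOC103870947) and KIN11 (LOC103875101), catalytic subunits of that kinase, both named after their values were seen. KIN11 was among those higher at median onset (log2 1.05), and KIN10 was within 2-fold at both onsets. Of 7 transcripts 3 were higher and 0 lower at onset in each type (medians 0.65 and 0.62), and 0 were lower at the end of secretion in either type. With same-total scaling 1 was higher at lateral and 0 at median onset. The trehalose phosphate synthase relatives TPS10 (LOC103829706) and TPS11 (LOC103837918) were listed at 792, 1795 and 1521, and at 387, 609 and 1202, in lateral nectaries. TPS8 (LOC103852641) was within 2-fold at every step. TPS9 (LOC103835645) was higher at both onsets (log2 1.14 and 1.24). By product name alone, 10 of 21 bZIP transcripts were higher and 2 lower at lateral onset (6 and 4 with same-total scaling), in a list that overlaps that of S1 and C factors. Highest by mean value were LOC103862358, a W2 domain protein (LOC103868306) within 2-fold at all 4 steps, bZIP9 and bZIP53.

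The AT5G24580 match is itself uncharacterized, so relatives could not be found by its own product name. A search by name for heavy metal-associated proteins gave 1 other transcript, heavy metal-associated isoprenylated plant protein 26 (LOC103835176). It was listed at 71, 33 and 375 in lateral nectaries, at 38, 8 and 94 in median nectaries and at 180 in leaf. It was lowest at secretion, where the AT5G24580 match was highest. Of 12 iron transcripts, 2 were higher and 2 lower at lateral onset (median -0.04), and 7 were higher and 3 lower at median onset (median 1.48). The ferric reductase FRO7 (LOC103843890) was lower in nectaries than in leaf, with 946, 510 and 2458 in the lateral series against 20946. Ferritin FER1 (LOC103855410), an iron store, was within 2-fold at all 4 steps, and FER3 (LOC103830031) was lower at median onset (log2 -2.67), at 8922 and 1404. The metal-nicotianamine transporter YSL1 (LOC103834971) peaked at secretion in both types, at 535, 5196 and 199 and at 1840, 5639 and 1442.

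Transcripts with a course like those of the 4 genes were sought among 3269 named transcripts that reached a value of 1000. Closest to ADH1 were a serine hydroxymethyltransferase 6 (LOC103869084, r = 0.994), a stress-induced UPF0664 protein (LOC103855921, 0.992) and a prolyl 4-hydroxylase (LOC103835803, 0.991). The first of these ran from 364 in leaf to 1120 in lateral secretory nectaries, so the shape was shared and the size was not. Closest to LPR1 were cyclin-dependent kinase F-4 (LOC103861033, 0.988), homocysteine S-methyltransferase 1 (LOC103875335, 0.986) and the L-ascorbate oxidase-like transcript named above (0.986).

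Closest to the AT5G24580 match were sugar transport protein 7 (LOC103836783, 0.992), MIZU-KUSSEI 1 (LOC103875363, 0.988) and a serine incorporator (LOC103836002, 0.987). Closest to bZIP44 were a glutamate synthase (LOC103865867, 0.988), a 4-coumarate--CoA ligase (LOC103869197, 0.979) and the nectar sucrose exporter SWEET9 (LOC103857843, 0.976). An r of at least 0.95 over the 7 groups was reached by 62 transcripts with ADH1, 62 with LPR1, 21 with the AT5G24580 match and 24 with bZIP44. The values on which the 4 genes were picked enter each of these r, which carry no test.

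The labelled tissues carried their own markers, with 10 of 10 nectary transcripts higher and 9 of 9 photosynthesis transcripts lower than in leaf in both secretory groups. CRC (LOC103831319), a factor needed to form nectaries in Arabidopsis, had 92 in leaf against 39366 in the lateral and 48454 in the median secretory group. CWINV4 (LOC103865521), a cell wall invertase, had 67 against 147338 and 77852. At onset 5 of 10 nectary markers were higher and 0 lower in lateral nectaries, and 4 higher and 1 lower in median nectaries. With same-total scaling 4 and 2 were higher. Up to 3 in lateral and 2 in median nectaries were lower under the alternatives. Of all transcripts 21.5% were higher and 23.5% lower at lateral onset, and 17.596% and 18.4% at median onset.

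Other marker lists were also higher at onset. All 9 transcripts used as a sign of handling stress were higher at lateral onset and 8 of 9 at median onset. By mean value over the groups the first were a pair of HSP70 transcripts (LOC103845440 and LOC103859451), HSFA2 (LOC103858372) and an HSP17.6C match (LOC103873314). HSFA2, a heat stress factor, was listed at 6, 3113 and 39 in lateral and at 5, 318 and 27 in median nectaries. Summed over the list the value was 294, 9954 and 1974 in lateral nectaries, 401, 3680 and 1009 in median nectaries and 2317 in leaf. A single transcript was at 0, in median pre-secretory nectaries. Like the 4 genes, this sum was highest at secretion in both types. Unlike them, its leaf value stood above the pre-secretory and the post-secretory groups of both types. Its part in the results was not tested.

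Pollen transcripts were 5 of 5 higher at onset in each type. ACA9 (LOC103859893), the highest by mean value, was listed at 250, 2324 and 942 in lateral and at 742, 2747 and 2408 in median nectaries. It differed from the rest after secretion. At the lateral end step ACA9 was lower (log2 -1.30), while the other 4 were slightly raised within 2-fold (log2 0.28 to 0.42). At the median end step those 4 were higher and ACA9 was within 2-fold (log2 -0.19). Their summed value was 622, 4038 and 3141 in lateral nectaries, 1152, 6377 and 10225 in median nectaries and 183 in leaf, with none at 0. This sum was highest after secretion in median nectaries, where all 4 genes were below their secretory values. No transcript was matched to the other 11 of the 15 pollen loci or to the 8 tapetum loci, which were therefore not analysed here. The 3 phloem transcripts, of the lectin PP2-A1 and the sucrose carrier SUC2, summed to 1163, 1572 and 1647 in lateral, 45, 96 and 248 in median nectaries and 5409 in leaf. All 3 were higher in lateral than in median nectaries at every stage. The part of these tissues in the results was not tested.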

How the data were processed

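RNA of 21 libraries (TruSeq RNA v2) was sequenced by the authors as 50 bp paired-end reads. For each transcript the authors deposited 1 normalized whole-number score per group. Per the file headers, 6 of 7 columns are marked UQN, a tag that is not spelled out. How reads were aligned and counted, on which build, and how 3 libraries became 1 value, was not given in the sources used here. Column totals ran from 7081592 to 11197495, and depth per library is unknown.

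A transcript was kept when 3 or more groups reached 1, which left 14390 of 14398 and all 4 members. After adding a pseudocount of 1, log2 differences were computed with pandas 2.3.3, and 2-fold was called, with no test because each group has 1 value. Transcripts joined 18 lists by Arabidopsis locus or product name. The calls were checked on simulated data. Named genes were the members, the 4 most highly listed of each list discussed the 3 with the highest Pearson r, and those with a member's locus or product name; others are marked in the text. Members and lists were chosen with earlier results of these data known. Alternatives were pseudocounts of 10 and 0.1, scaling to the same total, median or 75th percentile, quantile normalization, and no filter.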

Additional observations from a re-analysis of the deposited data

How the results depend on the processing

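All 308 differences of the 4 genes recomputed under 7 alternatives kept their side of the 2-fold line except 6, and no called difference changed sign. With quantile normalization 2 of 4 genes, not 4, were lower at the lateral end step, since the AT5G24580 match had log2 -0.64 and bZIP44 -0.56; bZIP44 had -0.97 with same-total scaling. Quantile normalization also left 1 gene higher in lateral secretory nectaries (ADH1 at 0.64) and made 2 higher in lateral post-secretory nectaries (bZIP44 at 1.22). With columns scaled to the same median, 1 gene (ADH1, -1.01) was lower in lateral than in median pre-secretory nectaries. The cause was not tested. Same-total scaling moved the median of all transcripts to -0.53 at lateral onset, -0.37 at median onset, 0.70 at the lateral end and 0.46 at the median end. It gave 2024 transcripts higher and 5111 lower at lateral onset in place of 3094 and 3386. At the lateral end it gave 5757 and 1383 in place of 3445 and 2652, and at the median end 4048 and 1063 in place of 2515 and 2157. Core hypoxia transcripts higher at onset numbered 27 to 28 in lateral and 26 in median nectaries under every alternative. For each gene at least 1 of the 3 most alike transcripts remained among the first 3. Scaling to the same 75th percentile was chosen after seeing the data. No paired analysis was possible because the table gives 1 value per group, and for the same reason leaving out replicates was not run. Without values per library, depth limits could not be set.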

Other observations

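Under a threshold chosen after the values were seen, 31 of 14390 transcripts had a secretory value of at least 10000 in both nectary types and at least 2-fold above both other stages. The 4 genes were among them, as were both sucrose synthase 1 copies, pyruvate decarboxylase 2, GAPC1 and FBA8. A few others, picked after their values were seen, are given here. Phenylalanine ammonia-lyase 1 (LOC103867229), the entry enzyme of phenylpropanoid synthesis, was listed at 2404, 10652 and 502 in lateral and 8237, 20784 and 2990 in median nectaries. An arogenate dehydratase (LOC103851454), which makes phenylalanine, was listed at 974, 15183 and 850, and at 1997, 10609 and 2001. NADH glutamate synthase (LOC103857079) was listed at 10899, 56431 and 4007, and at 6110, 12343 and 4363. The peroxiredoxin-2B transcript LOC103852305 was listed at 35843, 122600 and 4257, and at 22918, 56356 and 6481. Of the 27 other transcripts, those named neither here nor in earlier paragraphs were not examined further.

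Of all 12 iron transcripts, 6 were at least 2-fold lower in lateral than in median nectaries at secretion, where 12.9% of all transcripts were lower. FER3 was the 1 that was higher, where 14.7% were. The iron genes given here were picked after their values were seen. OPT3 (LOC103849516), a transporter of phloem iron, was listed at 224, 426 and 1775 in lateral and at 107, 7641 and 771 in median nectaries. The iron-sensing ubiquitin ligase BTS (LOC103869579) was listed at 745, 594 and 524, and at 961, 4134 and 491. IRT1 (LOC103857713), the root iron importer of Arabidopsis, was listed at 574, 1751 and 47, and at 2946, 7636 and 736. Median secretory nectaries thus held the highest value of all 3, at the stage when LPR1 was high in both types.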
